A study of Caenorhabditis elegans with 2 samples.

Results

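The mitochondrial respiratory chain and the ATP synthase are described here as a set of 32 nuclear genes of the nematode Caenorhabditis elegans, out of 19973 protein-coding genes on its nuclear chromosomes. They were chosen by function, with earlier results of these data known, and were grouped by complex. There were 8 genes of complex I, 9 of complex III with its electron carrier cytochrome c, 7 of complex IV, 5 of complex V and 3 of ubiquinone synthesis. The data are ChIP-seq of the hypoxia-inducible factor HIF-1 in 2 biological replicates of 1 group. Both replicates were whole L4 larvae of strain OR3349, of both sexes, collected 52 hours after their synchronization by starvation at the L1 stage. The larvae carried HIF-1 fused at its C-terminus to GFP and FLAG as a stably expressed transgene, and sonicated chromatin was precipitated with an antibody to GFP. The labels do not say which promoter drives the transgene or whether untagged HIF-1 was also present, and they do not give the oxygen level. With 1 group of whole larvae there was no comparison of conditions, and no tissue could be told from another. No control library and no ChIP of another protein was analysed here, so the part of signal shared with other proteins in these results was not tested.

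The respiratory chain carries electrons from NADH through complex I, from succinate through complex II, and then by way of ubiquinone, complex III, cytochrome c and complex IV to oxygen. The proton gradient that complexes I, III and IV build drives ATP synthesis at complex V. HIF-1 is a transcription factor whose amount is held down by oxygen-dependent hydroxylation, in C. elegans by the enzyme EGL-9, and which binds the hypoxia response element. In the worm, mutants of isp-1 and clk-1, both among the genes described here, are long lived, and their longevity is known to need hif-1.

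A gene was counted as bound where a region of the optimal list had its summit, the base of highest signal, between 1000 bp upstream and 200 bp downstream of one of its annotated transcript starts. The optimal list held the 3531 regions that passed the authors' irreproducible discovery rate (IDR) threshold over both replicates. Of the 32 genes, 16 (50%) had an IDR region in this promoter window, beside 12.2% of all protein-coding genes. Among these genes the share was uneven between complexes, with few genes in each and no test of the difference. Complex IV had IDR regions at 6 of 7 genes and complex V at 4 of 5, whereas complex I had 1 of 8. The complex I count holds only for the 8 genes of this set. Of 22 further complex I subunits, described below, 10 (45.5%) had an IDR region. Complex III with cytochrome c had 4 of 9 and ubiquinone synthesis 1 of 3.

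**Figure D1:**
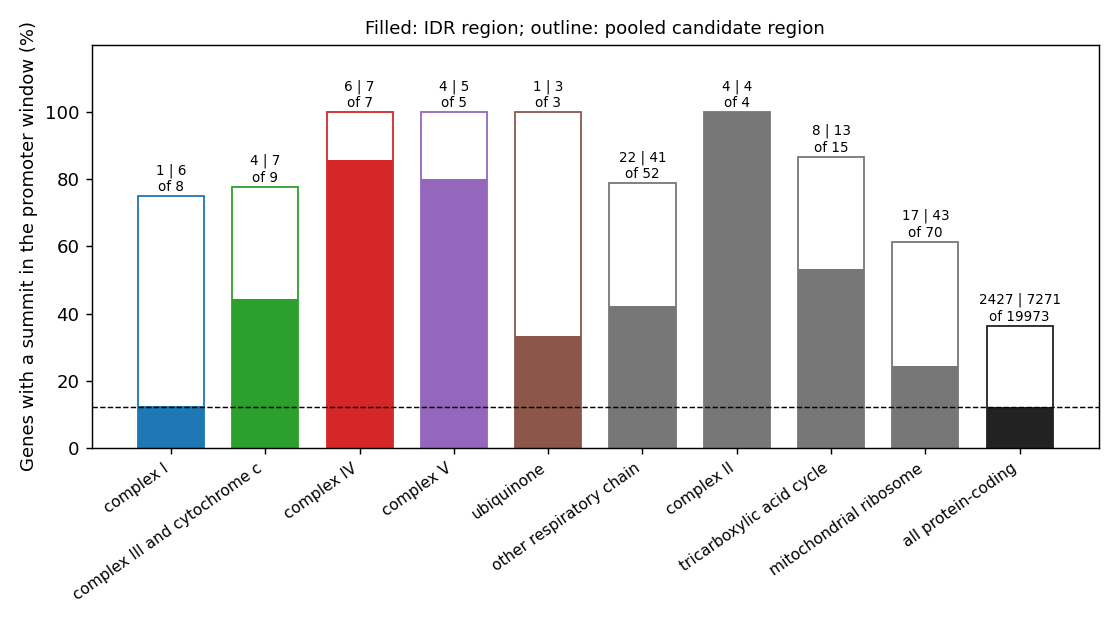
Percentage of genes (vertical axis) with a region summit in the promoter window, for each complex in colour, for 4 related gene lists in grey and for all protein-coding genes in black. Filled bars give IDR regions and outlined bars candidate regions of the pooled list, the numbers above each bar give both counts and the number of genes, and the dashed line marks the 12.2% of all genes. Among the genes of this set, complexes IV and V reach 6 of 7 and 4 of 5, and complex I lies at 1 of 8. Of 22 further complex I subunits, counted in the grey bar of other respiratory chain genes, 10 had an IDR region.

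The DNA under the summits is shown first for 6 of the 7 genes whose summit lay within 50 bp of the core of the hypoxia response element. The sequence of the seventh, cox-4, is not shown. The core was searched as ACGTG or GCGTG on both strands, and capitals mark it, written CACGT or CACGC where it lay on the other strand. The sequences are 50 bases to each side of the summit, on the strand of the gene, 5′ to 3′, from the WBcel235 genome of RefSeq (ce11). They lie at chrII:11097493-11097593 for nuo-1, chrX:12018117-12018217 for ucr-2.1, chrIII:12905146-12905246 for cox-5A, chrIII:5081172-5081272 for cox-6A and chrIII:2785983-2786083 for cox-6B, all on the plus strand. For coq-2 the 30 bases at chrIII:6935705-6935734, also on the plus strand, are given.
nuo-1: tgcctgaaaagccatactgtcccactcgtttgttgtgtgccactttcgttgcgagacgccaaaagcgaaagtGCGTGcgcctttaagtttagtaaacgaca
ucr-2.1: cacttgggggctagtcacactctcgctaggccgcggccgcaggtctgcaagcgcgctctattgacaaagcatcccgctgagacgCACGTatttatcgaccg
cox-5A: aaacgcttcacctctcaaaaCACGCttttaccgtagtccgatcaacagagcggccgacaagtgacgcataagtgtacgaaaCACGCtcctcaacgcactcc
cox-6A: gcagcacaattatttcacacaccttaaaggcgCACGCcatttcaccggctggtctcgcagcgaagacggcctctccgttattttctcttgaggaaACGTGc
cox-6B: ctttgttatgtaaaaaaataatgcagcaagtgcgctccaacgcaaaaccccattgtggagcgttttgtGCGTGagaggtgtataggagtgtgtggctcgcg
coq-2: tctattctgCACGTaggctttgctcttttc

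Summits of the same set without a core are shown for contrast, 1 each of complexes III, IV and V. They were taken at chrIII:5591897-5591997 for ucr-1 and chrIV:126308-126408 for cox-6C on the plus strand and at chrV:11124089-11124185 for atp-5 on the minus strand, where 97 bases are given. They hold no capitals because neither form of the core occurs in them.
ucr-1: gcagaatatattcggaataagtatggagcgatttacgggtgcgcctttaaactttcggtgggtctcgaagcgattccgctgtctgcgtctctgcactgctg
cox-6C: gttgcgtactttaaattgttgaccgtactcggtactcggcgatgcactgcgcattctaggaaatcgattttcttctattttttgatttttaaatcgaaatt
atp-5: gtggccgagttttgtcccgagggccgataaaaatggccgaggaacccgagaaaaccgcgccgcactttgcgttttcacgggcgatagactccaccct

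Complex IV, cytochrome c oxidase, passes electrons from cytochrome c to oxygen. Its 6 bound genes encode nuclear subunits, and their regions had a median signal of 400, the authors' own value per region, in a range of 196 to 634. The region upstream of cox-5A (chrIII:12905018-12905365) had a signal of 634 and rank 121 of the 3531 regions, with its summit 295 bp upstream of the start. Its signal was 268 in replicate 1 and 372 in replicate 2, at ranks 103 and 149 of 30000 regions in each replicate list. That placed cox-5A among the strongest regions of both replicates. The signals of the lists are not on one scale, so no difference between the replicates is read from them.

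The region of cox-6A (chrIII:5080732-5081414) was the widest of the 16, at 683 bp, with a signal of 579 at rank 147 and its summit 502 bp upstream. It stood at rank 140 in replicate 1 (224) and rank 159 in replicate 2 (364). The summit of cox-5B lay close to its start, 32 bp upstream, with a signal of 472 at rank 227. It had rank 156 in replicate 1 (211) and rank 319 in replicate 2 (262). These 3 genes were the strongest of complex IV in both replicates.

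The regions of cox-6B and cox-6C were nearly equal, with signals of 327 and 328 at ranks 510 and 507. The cox-6B region (chrIII:2785924-2786173) was at rank 537 in replicate 1 (122) and rank 571 in replicate 2 (197). This gene has 2 annotated starts, at III:2699663 and III:2786202, and the summit lay 169 bp upstream of the second, in an intron of the long transcript. At cox-6C (chrIV:126191-126587) the summit lay 373 bp upstream, with rank 468 in replicate 1 (130) and rank 512 in replicate 2 (209). The same cox-6C interval held a further summit, 156 bp upstream, with a signal of 95 just below the lowest value of the IDR list, 95.1. The cox-4 region was the weakest of the complex, with 196 at rank 1277 and a summit 466 bp upstream. It had rank 1739 in replicate 1 (67.4) and rank 1181 in replicate 2 (128). For cox-7C the window held only a candidate region, with a pooled signal of 35.4 at rank 12367 of 30000, found in replicate 2 (31) and not in replicate 1.

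Complex V, the ATP synthase, had IDR regions at the genes of the alpha and beta subunits, atp-1 and atp-2, and of the stalk subunits atp-3 and atp-5. Their median signal was 344. The atp-1 summit lay 2 bp downstream of the annotated start, in its own 5′ untranslated region, with a signal of 431 at rank 286. It had rank 323 in replicate 1 (152) and rank 255 in replicate 2 (283). The atp-3 summit lay similarly close, 16 bp upstream, with a signal of 282 at rank 690, and its ranks were 729 in replicate 1 (107) and 740 in replicate 2 (171). At atp-2 (chrIII:5228037-5228272) the signal was 263 at rank 786, 236 bp upstream, with rank 632 in replicate 1 (114) and rank 855 in replicate 2 (156). The ratio of ranks between replicates was largest at atp-5 (chrV:11123992-11124283), with a pooled signal of 407 at rank 314 and the summit 272 bp upstream. It was at rank 622 in replicate 1 (115) and at rank 231 in replicate 2 (298). The window of atp-4, which encodes a further stalk subunit, held a candidate region 493 bp upstream with 61.7 at rank 5952, present in replicate 1 (26.1, rank 8586) and replicate 2 (38.9, rank 5971).

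Complex III moves electrons from ubiquinol to cytochrome c, and its bound genes had a median signal of 170. Among the core protein genes, ucr-2.1 had a region (chrX:12017974-12018319) with a signal of 485 at rank 215, 262 bp upstream. It stood at rank 295 in replicate 1 (160) and rank 195 in replicate 2 (331). Its paralogue ucr-2.2 (chrX:15173617-15173794) had 155 at rank 1818, 193 bp upstream, with rank 1595 in replicate 1 (70.8) and rank 2204 in replicate 2 (84.9). The third paralogue, ucr-2.3, had no pooled candidate region in its window and only a region of replicate 2, with a signal of 16.3. The 3 paralogues thus covered the range from a strong region to none in the pooled lists. The region of ucr-1 (chrIII:5591887-5592006), the other core protein gene, was the weakest of the 16, with 145 at rank 1995, 188 bp upstream, and also the narrowest at 120 bp. It had rank 2007 in replicate 1 (61.8) and rank 2371 in replicate 2 (80.3). The cytochrome c1 gene cyc-1 had 185 at rank 1396, 289 bp upstream, with rank 1851 in replicate 1 (64.9) and rank 1352 in replicate 2 (116).

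The Rieske iron-sulfur protein gene isp-1 had no IDR region, but a candidate region 242 bp upstream with a pooled signal of 91.6 at rank 3696, just outside the list. It was found in replicate 1 (30.4, rank 6515) and replicate 2 (53.8, rank 4019). Of the cytochrome c genes, cyc-2.1 had a candidate region with 72.3 at rank 4912, 129 bp upstream of a start, found in replicate 1 (27.6, rank 7784) and replicate 2 (48, rank 4631), and cyc-2.2 had none. The small subunit gene ucr-11 had 33.5 at rank 13315, found in replicate 2 (18.8) and not in replicate 1.

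Complex I takes electrons from NADH. Its bound gene was nuo-1, which encodes the flavoprotein subunit that binds NADH. The nuo-1 region (chrII:11097452-11097662) had a signal of 244 at rank 888, 294 bp upstream, with rank 1210 in replicate 1 (82.5) and rank 863 in replicate 2 (155). The gene nuo-2, for a core subunit of the same arm, fell just outside the IDR list, with a pooled signal of 93.1 at rank 3631 and a summit 144 bp upstream. It had 44 in replicate 1 (rank 3443) and 46 in replicate 2 (rank 4862). Weaker candidate regions lay at nuo-3 (60.5, 13 bp upstream) and gas-1 (58.4, 296 bp upstream). Those of lpd-5 (32.9) and nuo-4 (16.5) ranked 13667 and 28795 of the 30000 pooled regions. The windows of nuo-5 and nuo-6 held no pooled candidate region, although replicate 1 alone had a weak region at nuo-5 (15, rank 22497).

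In ubiquinone synthesis, coq-2 encodes the enzyme that joins the polyprenyl tail to the ring precursor. Its region (chrIII:6935505-6935897) was the strongest of the 16, with 693 at rank 106, 247 bp upstream, and had rank 118 in replicate 1 (247) and rank 102 in replicate 2 (445). The summit lay in the annotated 3′ untranslated region of byn-1, the neighbouring gene upstream. The gene of the tail synthase, coq-1, had a candidate region 768 bp upstream with a signal of 50. The hydroxylase gene clk-1 had 19.2, 6 bp downstream of its start, and this region had a summit within 100 bp in neither replicate list.

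**Figure D2:**
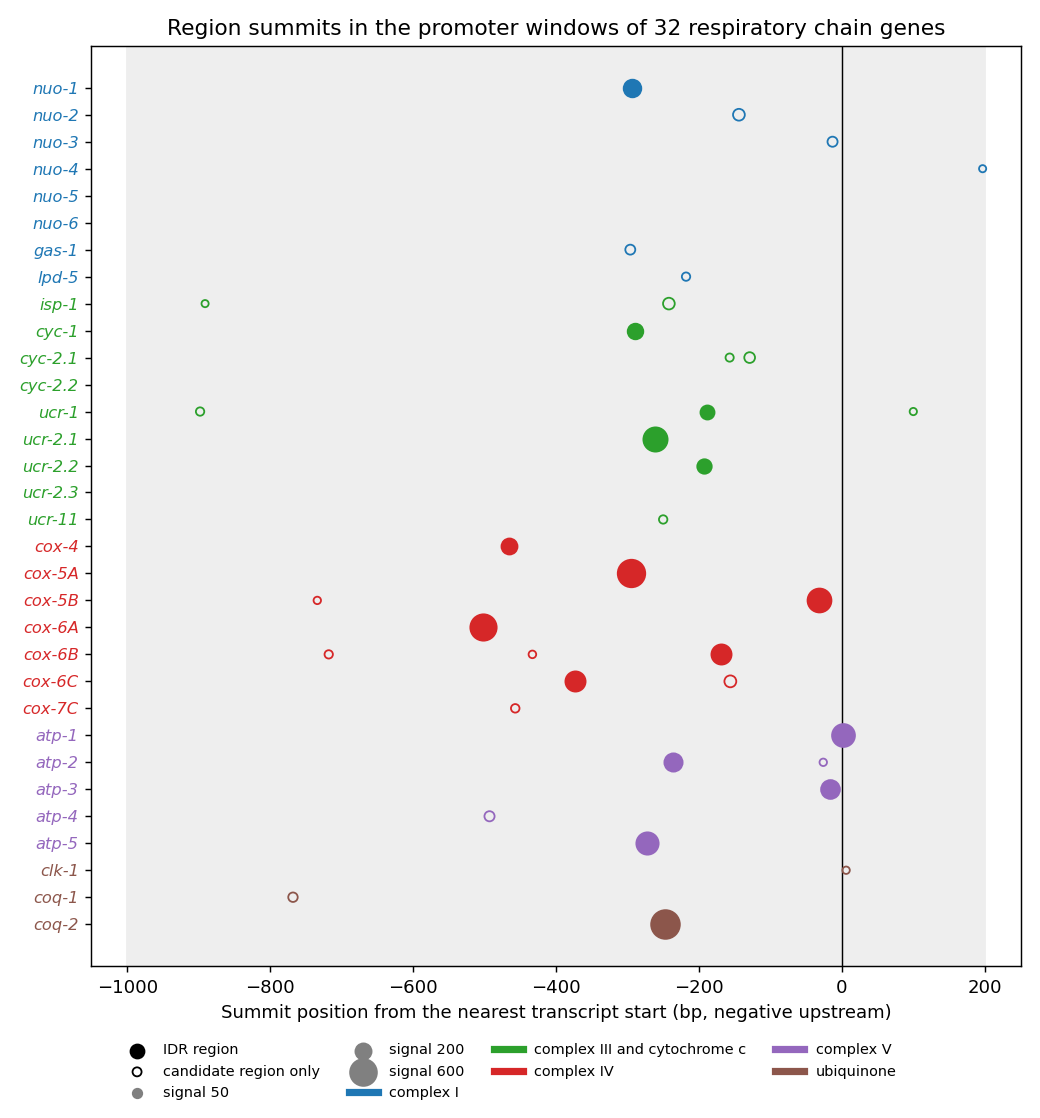
Position of each pooled region summit (horizontal axis, bp from the nearest transcript start, negative upstream) in the promoter window (grey) of each of the 32 genes (vertical axis, coloured by complex). Filled circles are IDR regions, open circles are candidate regions only, and circle area grows with the pooled signal. The 16 filled summits lie between 502 bp upstream (cox-6A) and 2 bp downstream (atp-1), and 4 genes have no summit.

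Counted over all 32 genes, 28 (87.5%) had a candidate region of the pooled list in the window, beside 36.4% of all protein-coding genes. A region in each of the replicate lists was present at 24 (75%), beside 30.2% of all genes. Among genes with a pooled candidate region, 16 of 28 (57.1%) reached the IDR list, beside 33.4% of all such genes. The candidate lists hold background as well as peaks, so the weak regions of these windows are not calls. In the windows of the 16 genes with no IDR region lay 14 candidate regions, with pooled signals of 16.4 to 93.1, of which 6 had a summit within 100 bp in both replicate lists, 7 in 1 of them and 1 in neither.

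All 16 IDR regions had a matching summit within 42 bp in both replicate lists, beside 2354 of the 2411 other genes with an IDR region in the window (97.6%, summit within 100 bp). Every one of the 16 was also among the 3531 strongest regions of each replicate. The IDR list was thresholded on agreement between the replicates, and its regions were the 3531 strongest of the pooled list. High ranks in each replicate were therefore favoured by the selection, and no such share of the other genes is given. Over these 16 regions signal in replicate 1 and signal in replicate 2 correlated with a Spearman coefficient of 0.944. This value is given as a description. Both lists were called relative to a control, and the regions had passed the IDR threshold and were strong in the pooled list. In both replicates cox-5A, cox-6A and coq-2 were the strongest of the 16 and ucr-1 was the weakest.

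**Figure D3:**
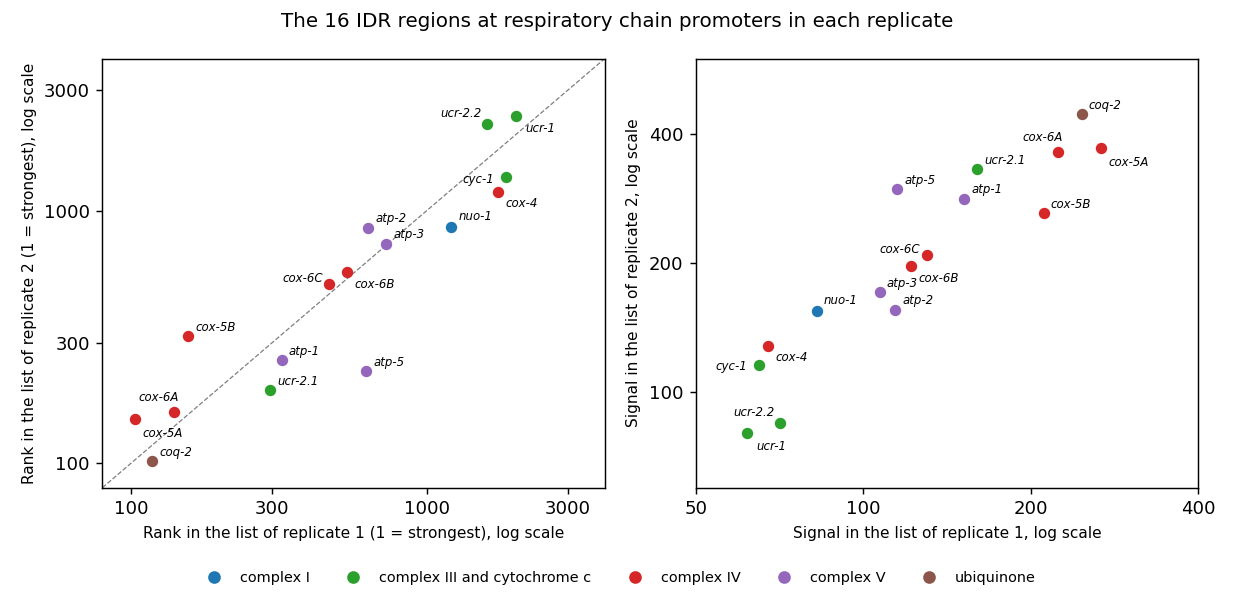
The 16 IDR regions in the list of replicate 1 (horizontal axes) and replicate 2 (vertical axes), as rank of 30000 regions (left, dashed line at equal rank) and as the authors' signal (right), on log scales and coloured by complex. The regions keep nearly the same order in both replicates, from coq-2 and cox-5A at ranks 102 to 149 to ucr-1 at ranks 2007 and 2371, and atp-5 lies farthest from the line of equal rank.

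The 16 regions were strong within the list. Their median signal was 327, beside 181 for the other 2411 genes with an IDR region in the window, and their median rank was 508, beside 1462. Of the 16, 7 (43.8%) were among the strongest 10% of IDR regions (353 regions), beside 12.9% of the other genes, and these were coq-2, cox-5A, cox-6A, ucr-2.1, cox-5B, atp-1 and atp-5. The position was similar to that of other bound genes, with a median of 254 bp upstream, beside 242 bp. Summits from 500 to 100 bp upstream made up 12 of 16 (75%), beside 58.3%. None of the 16 summits lay within 250 bp of a tRNA gene, beside 41 of the other genes (1.7%). The 101 bases at the summit had a median GC content of 51%, beside 47.5%, while the whole promoter windows of the 32 genes had 36.4%, beside 35% for all protein-coding genes.

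A summit could not always be assigned to 1 gene. For 10 of the 16 (62.5%) it lay in the promoter window of another protein-coding gene too, beside 46.9% of the other bound genes, and for all 10 at least 1 such neighbour ran in the opposite direction (62.5%, beside 43.4%). On which of the genes the bound site acts was not measured. The nuo-1 summit lay 339 bp upstream of rpl-36.A, a ribosomal protein gene, and the ucr-2.1 summit only 124 bp upstream of nmat-1, an enzyme gene of NAD synthesis, which is closer than to ucr-2.1 itself. The atp-5 summit was likewise closer to lmtr-3, at 47 bp, and the cox-6B summit to Y71H2AM.20, at 85 bp. That cox-6B region also lay 819 bp upstream of nduc-2, a complex I subunit gene on the same strand. At ucr-1 the neighbour was the RNA helicase gene ddx-15 (229 bp), at cox-6C grld-1 (427 bp), at atp-1 mcrs-1 (192 bp) and at atp-3 F27C1.2 (233 bp). For atp-2 these were C34E10.10 (297 bp) and C34E10.12 (300 bp), and for coq-2 F57B9.8 (401 bp). The summits of cyc-1, ucr-2.2, cox-4, cox-5A, cox-5B and cox-6A lay in the window of no other protein-coding gene.

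Many C. elegans genes are transcribed in operons from a promoter upstream of the first gene. No operon annotation was used here, so genes on the same strand separated by at most 200 bp were taken as a run. By this measure 8 of the 32 genes (25%) had another gene of a run upstream, beside 9.56% of all protein-coding genes. Of these 8, 1 (12.5%) had an IDR region of its own, against 15 of the 24 other genes of the set (62.5%), and for all protein-coding genes these shares were 6.18% and 12.8%. At 4 of the 7 downstream genes without a region of their own (57.1%), the first gene of the run had one, beside 29.2% of the 1791 such genes among all protein-coding genes. The strongest of these was upstream of rpl-20, the ribosomal protein gene that ends 110 bp before cyc-2.1, with a signal of 614 at rank 127 (chrIV:4749912-4750225). The others were upstream of dad-1 (345, run of ucr-11), syf-2 (272, run of nuo-4) and Y45G12B.2 (165, run of nuo-5). Each of these 4 summits also lay in the promoter window of a gene outside the run. In the same order, these genes were Y17G9B.5, tre-1, K04G7.1 and Y45G12B.3. At rpl-20, dad-1 and syf-2 the summit was closer to that other gene. On which of the genes these sites act was not measured. No IDR region lay in the windows of the first genes of the runs of nuo-2, atp-4 and clk-1, which are T10E9.14, alh-4 and toc-1. The run of coq-2 begins with inf-1, which had a region of 149 in addition to the region of coq-2 itself. Counting the own window or that of the first gene of the run, 20 of 32 genes (62.5%) had an IDR region, beside 14.8% of all genes.

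Within 5000 bp of a start, 22 of 32 genes (68.8%) had an IDR summit, beside 28.9% of all genes. The 6 genes added by the longer distance had their nearest summit 1065 bp upstream for cyc-2.1, 1296 bp upstream for ucr-11 and 4339 bp upstream for nuo-5, and downstream of the start at 2985 bp for nuo-4, 3027 bp for coq-1 and 3284 bp for nuo-3. The first 3 were the regions of the upstream genes named above, and the summit near nuo-3 lay in the promoter window of coq-3, a methyltransferase gene of ubiquinone synthesis. There were 4 genes with a region in the window and a further one within this distance, the strongest 4247 bp upstream of cox-4 (615), in the 5′ untranslated region of ints-4. The other further regions were at cox-6A (205), atp-1 (147) and atp-2 (97.4). The remaining 10 genes, among them isp-1, clk-1 and gas-1, had no IDR summit within 5000 bp.

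The core of the hypoxia response element, marked above for 6 genes, was found in 7 of the 16 regions (43.8%), no more than 50 bp from the summit. The share was 42.4% of the 1994 other IDR regions in promoter windows and 23.3% of the 30000 pooled candidate regions. By complex, the core was present at 4 of 6 regions of complex IV, 1 of 4 of complex III, 0 of 4 of complex V, and at the single regions of complex I and of ubiquinone synthesis. At coq-2 the centre of ACGTG lay 4 bp from the summit, on the strand opposite to the gene. At cox-5A there were 2 copies of GCGTG, centred 28 bp before and 33 bp after the summit, and at cox-6A a GCGTG 16 bp before and an ACGTG 47 bp after it. At cox-4, cox-6B and nuo-1 a GCGTG was centred 18, 20 and 24 bp after the summit, and at ucr-2.1 an ACGTG 36 bp after it. The regions without a core included strong ones, such as cox-5B and atp-1. Over the whole promoter window of the most upstream start, a core was found for 29 of 32 genes (90.6%), beside 82.1% of all genes, with 15 of 16 among bound genes and 14 of 16 among the others.

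**Figure D4:**
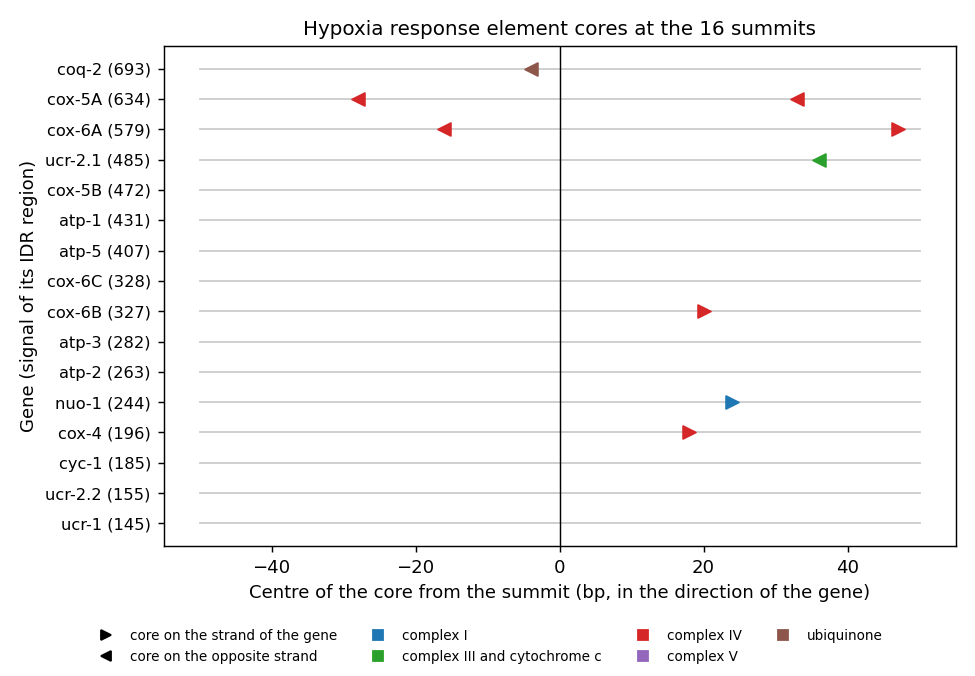
Centre of each ACGTG or GCGTG core (horizontal axis, bp from the summit, in the direction of the gene) within 50 bp of the summit of each of the 16 IDR regions (vertical axis, ordered by signal, given in parentheses), coloured by complex. Arrowheads to the right are cores on the strand of the gene and to the left on the opposite strand. The 4 strongest regions hold a core, the 4 of complex V hold none, and the core of coq-2 lies nearest to its summit.

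Further genes of the respiratory chain were counted on a list of 52 subunit, assembly and ubiquinone genes. This list was also chosen with earlier results of these data known, is not complete and lacks nduc-2, for example. Of the 52 genes, 22 (42.3%) had an IDR region, with a median signal of 194, beside the 12.2% of all genes. Complex I, low among the 8 genes above, had 10 of 22 further subunits with a region, a count not tested against the first. The strongest was ndub-7 with 1551 at rank 28, above every one of the 32 genes, followed at a distance by nduf-2.2 (332), ndua-2 (229) and ndua-8 (224). Complex V had 6 of 9 further subunits, led by R53.4 (301), Y82E9BR.3 (272) and F58F12.1 (247), and complex III had 2 of 4, with 390 at T27E9.2. Among genes of complex IV assembly factors and of the cytochrome c haem lyase, 1 of 9 had a region, at the copper chaperone gene sco-1 (550). Ubiquinone synthesis had 2 of 5, with 230 at the methyltransferase gene coq-5. Among the bound genes named in this paragraph, only sco-1, Y82E9BR.3 and F58F12.1 had a summit in no other gene's promoter window. The summits of the rest, including that of ndub-7, were shared with a neighbour and could not be assigned to 1 gene.

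Related mitochondrial genes are given for scale. Complex II, succinate dehydrogenase, which also belongs to the tricarboxylic acid cycle, had regions at 4 of 4 genes, with signals of 2472 at sdha-1, 1794 at mev-1, 891 at sdhd-1 and 373 at sdhb-1. Of these, 3 exceeded the 693 of coq-2, the highest of the 32 genes. The other tricarboxylic acid cycle enzymes had regions at 8 of 15 genes (53.3%) with a median signal of 203, led by mdh-1 (1818), sucl-1 (325), aco-2 (227) and cts-1 (214). Mitochondrial ribosomal protein genes had them at 17 of 70 (24.3%) with a median of 188, led by mrpl-18 (369), mrps-35 (363), mrpl-15 (350) and mrpl-55 (282). Among the genes named here, sdha-1, sucl-1, cts-1, mrpl-15 and mrpl-55 shared the summit with no other protein-coding gene's window. The summits of the other named genes, including mev-1 and mdh-1, also lay in the window of a neighbour. Differences between these lists were not tested.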

How the data were processed

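The authors deposited lists of regions with a signal per region, relative to a control, and a −log10 q-value. Per the file lists deposited with the samples, there was 1 candidate list for each replicate, 1 for both pooled, and an optimal list thresholded by IDR. Neither the aligner nor the peak caller is named in the sources used here. The deposited −log10 q-value was 3.96 for all IDR regions and was not used. The signal was used to describe and rank within a list. The files hold no read counts, so depth is unknown.

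The ce11 lists were joined to Ensembl release 115 (WBcel235; 29784 transcript starts) with Python 3.11.15, numpy 2.4.6 and scipy 1.17.1. The IDR regions were the 3531 strongest of the pooled list. Summits of different lists were matched within 100 bp. Sequences of 101 bp were read from the RefSeq genome. Members and lists were chosen with earlier results of these data known. All 32 genes are named, with the neighbours that share a summit, at most 10 genes of the list of further respiratory chain genes and at most 4 of each comparison list. Of the list names, 15 were matched by locus tag. The code was tested on simulated data. No test of a difference was made, since the labels give 1 group. Alternatives were other windows, starts, thresholds and distances, and each replicate alone.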

Additional observations from a re-analysis of the deposited data

How the results depend on the processing

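Of the 42 alternative values computed, 38 kept the value as reported within the limits set (counts within 1.5 times) and 4 moved. Some of the 38 could not move. Each of the 16 genes had 1 IDR region in its window, so the median over every region stayed 327. All matched summits lay within 42 bp, so limits of 50 and 250 bp gave the same 16. Counts of 28 and 24 of 32 genes could not rise 1.5 times. The tally of 38 is therefore not a measure of how stable the results are. With the stronger 50% of the IDR regions, 13 of the 52 listed further respiratory chain genes had a region, against 22, a list of fewer regions by construction. With 25 bp to each side in place of 50 bp, 4 of the 16 regions held a core, against 7. A narrower span can only hold fewer cores in any set, and the share of other regions at 25 bp is not given. The median signal of the 16 regions was 119 in the list of replicate 1 and 203 in that of replicate 2, on scales of their own, against 327 in the pooled list. The count of 16 genes with an IDR region became 15 with 500 bp upstream (without cox-6A) or the most upstream start only (without cox-6B), 14 with the stronger 50% of the regions (without ucr-1 and ucr-2.2), 17 with any overlap of the window (cyc-2.1 added) and 18 with 2000 bp upstream (cyc-2.1 and ucr-11 added). Of all genes, 9.61% had one with 500 bp, 2232 of 19973 with the most upstream start only, 7.1% with the stronger 50%, 12.9% with any overlap and 15.6% with 2000 bp.

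With the 3531 strongest regions of either replicate alone, the count was 16 from replicate 2 and 17 from replicate 1, with nuo-2 added, beside 12.5% and 11.6% of all genes. These regions gave 18 to 22 of the listed further respiratory chain genes and 23 to 24 of the 32 genes within 5000 bp. In the full candidate list of 1 replicate, in place of the pooled list, 25 to 27 of the 32 genes had a region in the window. Around the matched summits of 1 replicate, 6 to 7 of the 16 regions held a core. No share of all genes or of other regions is given beside these ranges, so they are not read against one. Counting the first gene of a run, and the lists of single replicates for candidates and cores, were chosen after seeing the data. No paired analysis was possible because there was 1 group. Depth is unknown, so a region missing from a list may be one not detectable at this depth.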

Other observations

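The letters shared by the summits were looked at after the data had been seen, so the values are given without a test. Of the 512 strand-merged 5-mers, the one with the largest excess at the 16 summits was ACGCA, present within 50 bp at 13 of 16 (81.2%), beside 650 of the 1994 other IDR regions in promoter windows (32.6%) and 11 of the 22 regions of the listed further respiratory chain genes (50%). CGCAC, which overlaps it, was present at 10 of 16 (62.5%), beside 26.0% and 6 of 22. These letters also overlap the complement CACGC of the core. The core itself lay at 7 of the 16 summits, so ACGCA was present at summits without a core too. Its complement TGCGT can be read in the sequences of ucr-1, cox-6C and atp-5, which hold none.

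The longest word shared by at least 3 of the 16 summits was gtgcgcctttaa, 12 bases long. It was present at nuo-1 (chrII:11097567-11097578) and ucr-1 (chrIII:5591935-5591946) on the strand of the gene and at cox-6A (chrIII:5081195-5081206) on the opposite strand, and can be read in the sequences of the 3 regions shown in the report. It occurred at 10 of the 1994 other IDR regions in promoter windows (0.502%) and at 0 of the 22 of the listed further respiratory chain genes. The word was in the promoter windows of 320 of the 19973 protein-coding genes (1.6%). Of these, 82 (25.6%) had an IDR summit in the window, beside 12.2% of all protein-coding genes. The 82 include nuo-1, ucr-1 and cox-6A, at whose summits the word was picked, so the 25.6% is partly drawn from the same data. That summit could lie anywhere in the window and not only at the word.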
